A study of Mus musculus with 8 samples.

Results

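The genes of the VEGF family and of other secreted factors that low oxygen induces were followed in Lewis lung carcinoma (LLC) cells, a mouse tumor line, with and without factor-inhibiting HIF (FIH). The members were the 9 genes Vegfa, Vegfb, Vegfc, Vegfd, Pgf, Angptl4, Adm, Edn1 and Angpt2, picked by gene name from a table of 53700 genes. All 9 were in the table, 8 passed the filter on low counts, and Edn1 did not. RNA-Seq was performed on 8 libraries from WT and FIH-KO cells kept for 16 hours in normoxia (21% O2) or hypoxia (1% O2), and each of the 4 groups had 2 libraries. FIH-KO cells were made with a Cas9 ribonucleoprotein aimed at exon 2 of Hif1an, the gene that encodes FIH, and were grown out from diluted single cells. How many clones stand behind the libraries was not given, so an effect of the deletion and a trait of a clone cannot be told apart. Nothing in the labels says that the 2 libraries of a group came from separate cultures, so the p-values measure the spread between these samples, which may be technical.

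Hypoxia-inducible factors (HIFs) are transcription factors that bind a short DNA element in hypoxia and raise genes for oxygen supply and glycolysis. FIH hydroxylates an asparagine of HIF-α and thereby keeps coactivators away from it, so the deletion addresses how far this step sets the output of HIF target genes. Vegfa, which drives the growth and permeability of blood vessels, and Adm, the vasodilator adrenomedullin, are among the best known of these targets, while Vegfc and Vegfd act mainly on lymphatic vessels.

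Library totals ran from 14519731 to 18177016 counts. Hif1an, the targeted gene, had 82.3 to 90.2 CPM (counts scaled to the library total) in the 4 WT libraries and 34.8 to 51.0 CPM in the 4 FIH-KO libraries. Its log2 difference between FIH-KO and WT was -1.20 in normoxia and -0.85 in hypoxia (adjusted p = 3.09e-05 and 0.000314), which set the genotypes apart as labelled, although a count per gene does not show whether exon 2 was intact. The markers listed to check the label gave a mixed picture. Krt8, Krt18, Vim and Cdh2 were well covered, and Krt19 had 11 to 17 counts in normoxia and 73 to 235 in hypoxia. The epithelial and lung markers Epcam, Cdh1, Nkx2-1 and Sftpc had 3 counts or fewer in every library. Of 12 endothelial markers, 7 (Kdr, Tie1, Tek, Emcn, Cldn5, Robo4 and Erg) were also at or under 3 counts in every library. So were 5 of 8 leukocyte markers, Ptprc among them. Of the others, Cd68 had 41 to 115 counts, and Lyz2 was higher in FIH-KO cells (log2 3.74 in normoxia and 3.75 in hypoxia). Csf1r, another leukocyte marker, went from 0 to 2 counts in normoxia to 10 to 53 in hypoxia and was called higher in WT and FIH-KO cells (adjusted p = 0.00151 and 0.00762). Of 8 fibroblast and mural markers 5 were tested, and Acta2 was higher in FIH-KO cells (log2 3.10 and 2.96), while Pdgfra was lower in FIH-KO cells in hypoxia (log2 -0.87, adjusted p = 0.0324). Their part in the results was not tested. CPM here were scaled by the trimmed mean of M values (TMM), and a gene was called higher or lower at an adjusted p under 0.05.

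The letters around the start sites are shown for 7 members, some raised by hypoxia and some not, because HIFs bind a core written ACGTG or GCGTG. Both strands were searched, so that the palindrome CACGTG counts on each strand. Positions count from the first base of the canonical GENCODE transcript in GRCm39, and negative numbers are upstream. In the window from 250 bases upstream to 50 bases downstream, 48.003% of 21757 protein-coding promoters held a core, against 6 of the 9 members. Over 2000 bases upstream, 84.897% of promoters held at least 1, with a median of 2 cores, against all 9 members, which had from 1 (Vegfd) to 9 (Vegfa). In the short window Vegfb had the most cores (4, with its palindrome counted on each strand), and Vegfa had none. Its ACGTG core nearest to the start on the gene's strand lay at -917 to -913, within chr17:46344162-46344286 on the minus strand, and the capitals mark the core in this and in every sequence below.
Vegfa, -977 to -853: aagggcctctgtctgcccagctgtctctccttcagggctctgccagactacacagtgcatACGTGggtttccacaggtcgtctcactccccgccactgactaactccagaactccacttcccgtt
Adm, 250 bases upstream, chr7:110226608-110226857, plus strand: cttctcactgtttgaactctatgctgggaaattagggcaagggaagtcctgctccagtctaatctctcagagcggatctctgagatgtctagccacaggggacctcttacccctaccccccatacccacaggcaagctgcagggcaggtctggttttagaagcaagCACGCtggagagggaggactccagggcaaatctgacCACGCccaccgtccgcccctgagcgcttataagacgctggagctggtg
Pgf, 250 bases upstream, chr12:85224565-85224814, minus strand: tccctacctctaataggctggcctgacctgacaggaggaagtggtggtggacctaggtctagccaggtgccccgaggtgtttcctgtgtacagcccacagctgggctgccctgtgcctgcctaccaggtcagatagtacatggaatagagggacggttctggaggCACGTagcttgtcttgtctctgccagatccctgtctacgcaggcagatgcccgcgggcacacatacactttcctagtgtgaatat
Vegfd, core at -35 to -31, chrX:163156205-163156209, plus strand: gttacaggcaACGTGcttaaaaaaa
Vegfc, core at -171 to -167, chr8:54530089-54530093, plus strand: ctggaggaaaGCGTGgggctggagg
Angptl4, core at -97 to -93, chr17:34000897-34000901, minus strand: agaaggcatcCACGTagcgggaagg
Angpt2, core at -935 to -931, chr8:18792534-18792538, minus strand: ctggaggcggACGTGgtcctttgag
The 2 GCGTG cores of Adm and the ACGTG cores of Pgf and Angptl4 in these stretches are on the opposite strand and appear as CACGC and CACGT. Members that hypoxia raised and members that it did not raise both held cores. Which members held one depended on the start used. In the RefSeq promoters of the same length (GRCm38.p6), which matched 7 of the 9 members and of which 43.773% of 32851 held a core, a second Vegfa start had 2 cores, and Vegfc and Vegfd had 0. These matches describe the sequence and do not show binding.

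Hypoxia raised 5 of the 8 tested members in WT cells and lowered none, against 32.4% of 13933 genes called in either direction and 16.9% called higher. In FIH-KO cells it raised 4 of 8 and lowered none, against 16.8% called in either direction and 8.84% called higher. Between genotypes in normoxia, 3 of 8 were called, all higher in FIH-KO, against 28.2% of all genes in either direction and 15.2% higher. In hypoxia 2 were higher (14.1% of all genes) and 1 was lower (13.9%), against 28.0% in either direction. Vegfa, Pgf and Adm, 3 of 8, rose with hypoxia in both genotypes, as 7.92% of all genes did, and Vegfd and Angpt2, 2 of 8, were called in the same direction between genotypes at both oxygen levels, as 18.7% of all genes were. The calls between genotypes were thus about as frequent among the members as among all genes. The median log2 difference of the tested members was 1.01 for hypoxia in WT and 0.64 in FIH-KO, and the medians of all genes were -0.0011 and -0.027. For FIH-KO against WT it was 0.24 in normoxia and -0.07 in hypoxia, where all genes had -0.0025 and -0.032. The 2 libraries of each group lay wholly to one side of the other group for 7 members in WT hypoxia against normoxia, where 70.8% of all genes did, and for 5 in FIH-KO, where 55.2% did. For FIH-KO against WT they did so for 6 members in normoxia and 5 in hypoxia, with 69.4% and 61.7% of all genes. The comparisons share samples, so each member's values are given side by side.

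**Figure D1:**
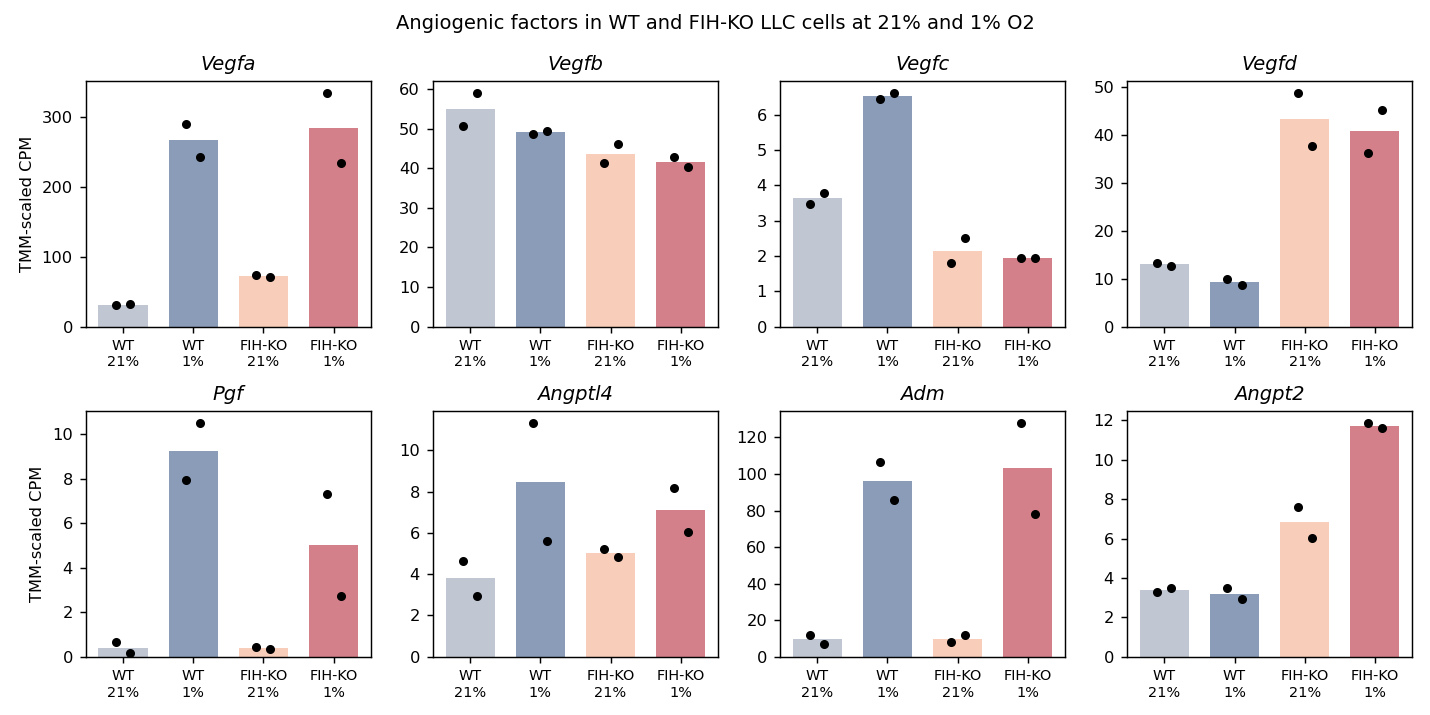
TMM-scaled CPM (vertical axes, each from 0 and on its own scale) of the 8 tested members in the 4 groups. Points are single libraries and bars are group means of 2 libraries. Vegfa, Pgf and Adm are high in both hypoxia groups, Vegfd and Angpt2 in both FIH-KO groups, and Vegfc is highest in WT hypoxia.

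Vegfa (chr17:46327919-46343309, minus strand) was the member with the widest range of CPM. WT cells in normoxia had 30.8 and 32.3 CPM, and WT cells in hypoxia had 291 and 243 CPM. FIH-KO cells had 74.6 and 70.9 CPM in normoxia and 335 and 234 CPM in hypoxia. The FIH-KO libraries thus lay above the WT libraries in normoxia with no overlap, and enclosed the WT libraries in hypoxia. Vegfa was 2.30-fold higher in FIH-KO than in WT cells in normoxia (log2 1.20, SE 0.16, adjusted p = 0.000296). In hypoxia the log2 difference was 0.09 (SE 0.15, adjusted p = 0.689). Hypoxia raised Vegfa 8.45-fold in WT cells, where it ranked 2 of 13933 genes by p (log2 3.08, SE 0.17, adjusted p = 2.03e-06), and 3.92-fold in FIH-KO cells (log2 1.97, SE 0.16, adjusted p = 1.29e-05). The normoxic level of FIH-KO cells was 27.3% of the level of WT cells in hypoxia. On the linear scale hypoxia added 235 CPM in WT and 212 CPM in FIH-KO cells. Counts per gene do not separate the spliced forms of Vegfa.

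The log2 response of Vegfa to hypoxia was smaller in FIH-KO than in WT cells by 1.11 (SE 0.22). This difference had an unadjusted p of 0.000309, rank 22 of 13933, and an adjusted p of 0.188 in the edgeR quasi-likelihood test, so it was not called. No gene of the 13933 was called for such a difference by edgeR, where 925 (6.64%) had an unadjusted p under 0.05. DESeq2 called 40 of 10961 genes (0.365%), and Vegfa was among them (log2 -1.10, adjusted p = 0.00449). Vegfa was also called in edgeR when every gene with at least 1 read was kept (adjusted p = 6.36e-06) and without replicate 1 of FIH-KO hypoxia (log2 -1.33, adjusted p = 0.0401), the library with the highest Vegfa level. In the other 7 fits that left out 1 library it was not called, with log2 differences from -1.23 to -0.87 and adjusted p from 0.173 to 1.00. Over the alternatives that kept all libraries, the adjusted p ran from 6.36e-06 to 0.235.

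Pgf (chr12:85213409-85224564, minus strand), placental growth factor, binds the receptor Flt1 as Vegfa does. It was close to the limit of detection in normoxia, with 10 and 3 counts in WT and 7 and 6 counts in FIH-KO libraries. In hypoxia the counts were 142 and 154 in WT and 117 and 42 in FIH-KO libraries, which are 7.96 and 10.5 CPM against 7.31 and 2.73 CPM. Every library in hypoxia was above every library in normoxia. The rise was 22.5-fold in WT (log2 4.49, SE 0.56, adjusted p = 0.000142) and 13.2-fold in FIH-KO cells (log2 3.72, SE 0.57, adjusted p = 0.00122). With 1 library left out it stayed called, at log2 5.59 without replicate 1 and 3.79 without replicate 2 of WT normoxia, and at 2.87 without replicate 1 of FIH-KO hypoxia. Between genotypes in hypoxia the log2 difference was -0.87 (SE 0.40, adjusted p = 0.128), with both FIH-KO libraries under both WT libraries. It was -1.71 (adjusted p = 0.00816) without replicate 1 of FIH-KO hypoxia and -0.33 at the other end of the range over single libraries left out. In normoxia it was -0.10 (SE 0.82, adjusted p = 0.945), and counts this low could not show a modest difference.

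Vegfb (chr19:6958447-6965127, minus strand), a ligand of Flt1 that is not a classical HIF target, varied least. Its level was 50.6 and 59.1 CPM in WT normoxia, 48.8 and 49.4 CPM in WT hypoxia, 41.3 and 46.1 CPM in FIH-KO normoxia and 43.0 and 40.3 CPM in FIH-KO hypoxia. All FIH-KO libraries were under all WT libraries of the same oxygen level, by log2 -0.33 in normoxia (SE 0.13, adjusted p = 0.0696) and -0.24 in hypoxia (SE 0.13, adjusted p = 0.187), neither past the threshold. Hypoxia gave log2 differences of -0.16 in WT and -0.07 in FIH-KO cells (adjusted p = 0.359 and 0.765). On chromosome 19, where 475 genes were tested, the median log2 difference between genotypes was -0.38 in normoxia and -0.45 in hypoxia, and the part of this shift in the Vegfb values was not tested. Vegfb overlaps Trpt1 on the other strand, whose log2 differences between genotypes were 0.02 and -0.34 (adjusted p = 0.971 and 0.533), and the strand setting of the counting was not given.

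**Figure D2:**
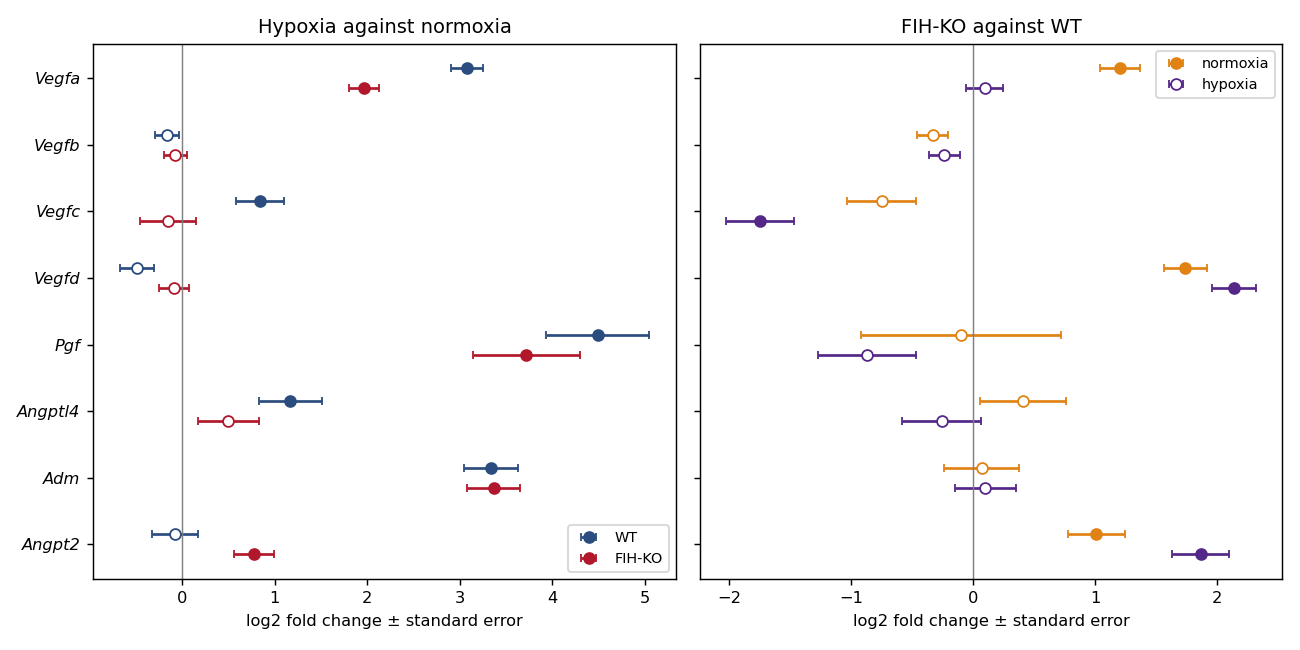
Log2 fold change (horizontal axis) with its standard error for each tested member, for hypoxia against normoxia on the left and FIH-KO against WT on the right. Filled points passed an adjusted p of 0.05 in edgeR and open points did not. Vegfa differs between genotypes in normoxia (1.20) and lies near 0 in hypoxia (0.09), while Vegfd and Angpt2 are to the right of 0 in both.

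Vegfc (chr8:54530257-54640131, plus strand) and Vegfd (chrX:163156240-163185646, plus strand), the lymphangiogenic ligands that need proteolytic processing, moved in opposite directions in FIH-KO cells. Vegfc had 3.47 and 3.79 CPM in WT normoxia, 6.45 and 6.62 CPM in WT hypoxia, 1.79 and 2.52 CPM in FIH-KO normoxia and 1.94 and 1.95 CPM in FIH-KO hypoxia. These levels rest on 30 to 115 counts a library. The WT hypoxia libraries stood above all others and the FIH-KO libraries were below all WT libraries. Vegfc was 3.35-fold lower in FIH-KO than in WT cells in hypoxia (log2 -1.74, SE 0.28, adjusted p = 0.000891), and in normoxia the log2 difference was -0.75 (SE 0.28, adjusted p = 0.0653). Hypoxia raised it in WT cells by log2 0.85 (SE 0.26, adjusted p = 0.0263), a call that was lost in DESeq2 (adjusted p = 0.0633) and whenever any 1 of the 4 WT libraries was left out (adjusted p 0.0980 to 0.174). In FIH-KO cells the log2 difference was -0.15 (SE 0.30, adjusted p = 0.788). The difference between these responses was -0.99 (SE 0.40, unadjusted p = 0.0274, adjusted p = 0.665).

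Vegfd had 13.2 and 12.6 CPM in WT normoxia and 9.81 and 8.60 CPM in WT hypoxia. FIH-KO cells had 48.7 and 37.6 CPM in normoxia and 36.2 and 45.0 CPM in hypoxia. The groups of the 2 genotypes were far apart at both oxygen levels, and within FIH-KO the oxygen levels overlapped. In FIH-KO cells Vegfd was 3.34-fold higher than in WT in normoxia (log2 1.74, SE 0.17, adjusted p = 3.69e-05) and 4.40-fold higher in hypoxia (log2 2.14, SE 0.18, adjusted p = 1.30e-05). Hypoxia gave log2 differences of -0.49 in WT (SE 0.18, adjusted p = 0.0621) and -0.09 in FIH-KO cells (SE 0.16, adjusted p = 0.771). The level of FIH-KO cells in normoxia was 469% of that of WT cells in hypoxia.

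The surroundings of Vegfd were examined because no other member had so large a difference between genotypes at both oxygen levels. Of 8 other tested genes within 1 Mb on chromosome X, 3 were higher in FIH-KO in each oxygen condition, against 15.2% of all genes in normoxia and 14.1% in hypoxia, and none was lower. The 3, named after their values were seen, were Car5b, a mitochondrial carbonic anhydrase (chrX:162759818-162811025, log2 3.43 in normoxia and 4.02 in hypoxia), Pir, which encodes pirin (chrX:163052272-163156008, log2 1.24 and 1.83), and Mospd2 (chrX:163719165-163763371, log2 0.66 and 0.85). Pir is the nearest gene upstream of Vegfd and is on the same strand. The median log2 difference of the 8 neighbors was -0.05 in normoxia and 0.09 in hypoxia, since the remaining 5 were not called, and over chromosome X, with 470 genes tested, it was 0.07 and 0.14. Neighbors called higher were not particular to Vegfd. Within 1 Mb of Adm, 7 of 18 were higher in normoxia and 8 in hypoxia, with 1 lower in each. Near Angptl4 18 and 13 of 63 were higher, and near Vegfa 8 and 5 of 43, with 0 lower. Near Vegfb 6 and 3 of 55 were higher and 16 and 18 lower, and near Angpt2 0 of 6 were higher and 1 was lower.

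Adm (chr7:110226858-110229027, plus strand) had 12.1 and 6.99 CPM in WT normoxia, 107 and 85.7 CPM in WT hypoxia, 7.86 and 12.1 CPM in FIH-KO normoxia and 128 and 78.1 CPM in FIH-KO hypoxia. The genotypes overlapped at both oxygen levels, while all hypoxia libraries were far above all normoxia libraries. Hypoxia raised it 10.1-fold in WT (log2 3.33, SE 0.29, adjusted p = 1.59e-05) and 10.3-fold in FIH-KO cells (log2 3.36, SE 0.29, adjusted p = 1.89e-05). FIH-KO against WT gave log2 0.07 in normoxia (SE 0.31, adjusted p = 0.890) and 0.10 in hypoxia (SE 0.25, adjusted p = 0.805). The responses of the genotypes differed by 0.03 (SE 0.40, adjusted p = 0.996). In normoxia Adm of FIH-KO cells stood at 10.4% of the level of WT cells in hypoxia, where Vegfa stood at 27.3% and Pgf at 4.07%.

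Angptl4 (chr17:33992724-34000804, minus strand), a secreted inhibitor of lipoprotein lipase, had 4.63 and 2.96 CPM in WT normoxia, 11.3 and 5.60 CPM in WT hypoxia, 5.24 and 4.81 CPM in FIH-KO normoxia and 8.18 and 6.05 CPM in FIH-KO hypoxia. The WT hypoxia libraries differed from each other more than the genotypes did. Hypoxia raised it 2.25-fold in WT cells (log2 1.17, SE 0.34, adjusted p = 0.0206), which fell to log2 0.53 (adjusted p = 0.303) without replicate 1 of WT hypoxia and to 0.84 (adjusted p = 0.196) without replicate 2 of WT normoxia. In FIH-KO cells the log2 difference was 0.50 (SE 0.33, adjusted p = 0.340). FIH-KO against WT gave 0.41 in normoxia and -0.26 in hypoxia (SE 0.35 and 0.32, adjusted p = 0.417 and 0.594).

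**Figure D3:**
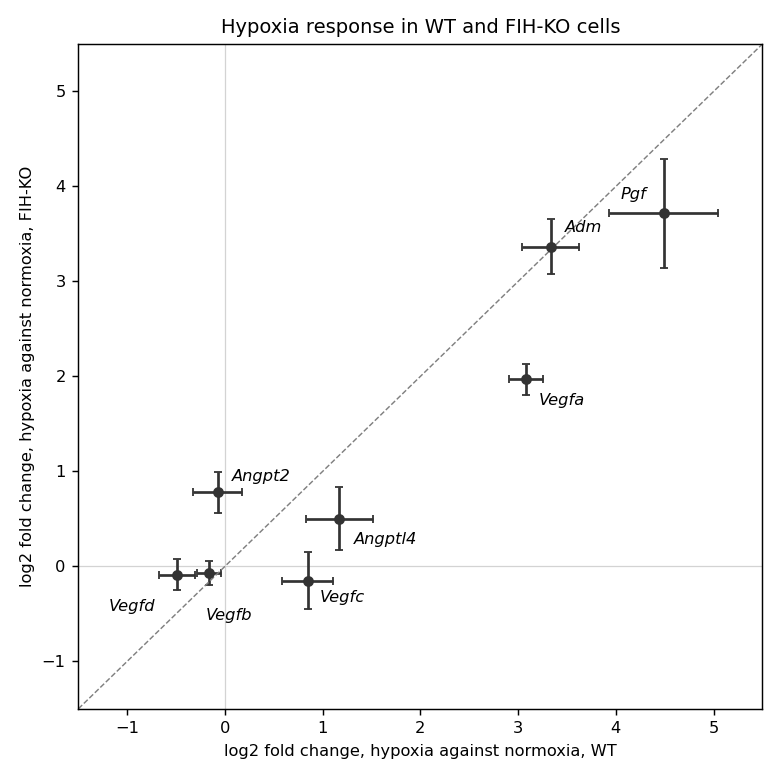
Log2 fold change of hypoxia against normoxia in WT cells (horizontal axis) and in FIH-KO cells (vertical axis) for the 8 tested members, with standard errors. On the dashed line both responses are equal. Adm lies on it (3.33 and 3.36), Vegfa lies below it (3.08 and 1.97) and Angpt2 above it (-0.07 and 0.78), and none of these differences was called by edgeR.

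Angpt2 (chr8:18739202-18791603, minus strand), a ligand of the receptor Tek that loosens vessel walls, had 3.28 and 3.49 CPM in WT normoxia and 3.47 and 2.94 CPM in WT hypoxia. FIH-KO cells had 7.62 and 6.05 CPM in normoxia and 11.9 and 11.6 CPM in hypoxia. Every FIH-KO library was above every WT library, and in FIH-KO cells hypoxia was above normoxia. Angpt2 was 2.01-fold higher in FIH-KO in normoxia (log2 1.01, SE 0.23, adjusted p = 0.00729) and 3.64-fold higher in hypoxia (log2 1.86, SE 0.23, adjusted p = 0.000181). The call in normoxia was lost in 3 of the 4 fits that left out 1 library (adjusted p up to 0.0775), while the call in hypoxia was kept in all 4. Hypoxia raised it in FIH-KO cells by log2 0.78 (SE 0.22, adjusted p = 0.0283), a call that did not hold with only the 4 FIH-KO libraries in the fit (adjusted p = 0.0554) or with 1 library left out in 3 of 4 fits (adjusted p up to 0.148). In WT cells the difference was -0.07 (SE 0.25, adjusted p = 0.846), and the responses differed by 0.85 (SE 0.33, unadjusted p = 0.0234, adjusted p = 0.655).

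Angpt2 lies inside Mcph1 on the other strand, and Mcph1 moved the opposite way, by log2 -0.41 in normoxia and -0.62 in hypoxia (adjusted p = 0.0335 and 0.00401). Because Angpt2 is also an endothelial product, the endothelial list was set beside it. The summed level of its 12 markers was 9.32 to 12.3 CPM in WT normoxia, 7.44 to 7.96 CPM in WT hypoxia, 19.3 to 20.2 CPM in FIH-KO normoxia and 12.7 to 15.8 CPM in FIH-KO hypoxia. Egfl7 held most of the counts of this list in every library (75 to 345), so the sum mainly followed this gene. Only Egfl7 and Cdh5 of the list passed the filter. Egfl7 was higher in FIH-KO cells (log2 0.91 and 1.41), and Cdh5 was lower in FIH-KO than in WT cells in hypoxia (log2 -2.62). Kdr, Tie1, Tek, Emcn, Cldn5, Robo4 and Erg had at most 3 counts in any library, and Pecam1, Vwf and Esam had at most 8. Cdh5 rose in WT cells from 2 and 1 counts in normoxia to 35 and 18 in hypoxia (log2 4.01, adjusted p = 0.00102). Angpt2 had 43 to 190 counts, and which cells it came from was not tested. In bulk samples, fewer cells of a kind and less RNA per cell cannot be told apart.

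Edn1 (chr13:42446301-42461466, plus strand), the vasoconstrictor endothelin-1, had 0 counts in all 8 libraries. With 3 counts as the limit that a count of 0 allows, its level was at most 0.168 to 0.205 CPM, depending on the library. This limit covers counting error only, and no fold change was computed. In the annotation 2 other genes overlap Edn1, and how reads shared between genes were handled was not given.

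Levels of different members were compared per kb of exon. The length took in every annotated exon of a gene, from 1629 bases in Adm to 4792 in Angpt2. Transcripts present in these cells may be shorter, so the order between members depends on this choice. In WT normoxia Vegfb was the highest (16.9 ± 1.84 CPM per kb, SD, n = 2), followed by Vegfa (7.34 ± 0.257), Adm (5.87 ± 2.24) and Vegfd (4.53 ± 0.154), where Adm overlapped both of its neighbors. Vegfc, Angptl4, Angpt2 and Pgf came next, between 1.27 and 0.140 CPM per kb, with Angptl4 and Angpt2 overlapping. In WT hypoxia Vegfa (62.1 ± 7.96) and Adm (59.0 ± 9.03) led and overlapped each other, ahead of Vegfb (15.1 ± 0.144). Below them Vegfd and Pgf overlapped, as did Vegfc and Angptl4, and Angpt2 was last of the detected members at 0.669 CPM per kb.

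In FIH-KO normoxia Vegfa (16.9 ± 0.606), Vegfd (15.1 ± 2.75) and Vegfb (13.4 ± 1.04) were the highest, Vegfd overlapped both of the others, and Adm followed (6.12 ± 1.84). In FIH-KO hypoxia Vegfa (66.3 ± 16.6) and Adm (63.3 ± 21.6) led with overlap, then Vegfd (14.3 ± 2.19) and Vegfb (12.8 ± 0.583), also with overlap. Angpt2 (2.45 ± 0.0415) followed and overlapped Pgf (1.72 ± 1.11), and Vegfc was the lowest of the detected members (0.680 ± 0.00407).

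The makeup of the VEGF ligand pool shifted accordingly. Over Vegfa, Vegfb, Vegfc, Vegfd and Pgf, the summed level was 28.8 and 31.5 CPM per kb in WT normoxia, 91.1 and 80.6 in WT hypoxia, 47.9 and 44.8 in FIH-KO normoxia and 107 and 84.3 in FIH-KO hypoxia. Vegfb made up 54.0% and 57.7% of the pool in WT normoxia. Vegfa made up 74.3% and 70.1% in WT hypoxia and 72.8% and 64.7% in FIH-KO hypoxia. FIH-KO cells in normoxia had a mixed pool, with 36.2% and 36.8% Vegfa, 35.7% and 29.4% Vegfd and 26.5% and 31.6% Vegfb. These are shares of RNA that rest on the same exon lengths, and protein was not measured here.

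**Figure D4:**
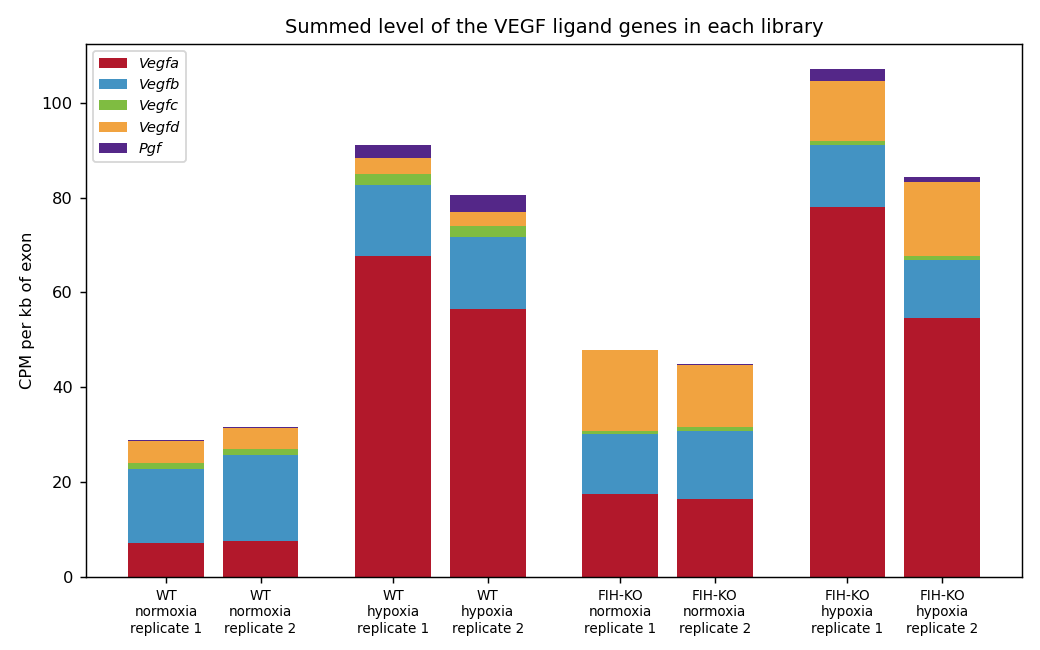
Summed level of the 5 VEGF ligand genes in each library, in CPM per kb of exon (vertical axis, from 0), with each gene as a part of the bar. The FIH-KO normoxia bars (47.9 and 44.8) stand between those of WT normoxia (28.8 and 31.5) and WT hypoxia (91.1 and 80.6), and the Vegfd part is larger in FIH-KO than in WT libraries.

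The receptors of the VEGF ligands were examined in the same libraries. Flt1, the receptor of Vegfa, Vegfb and Pgf, had 31.4 and 34.4 CPM in WT normoxia and 44.1 and 42.1 CPM in WT hypoxia, but 2.98 and 1.57 CPM in FIH-KO normoxia and 3.87 and 2.41 CPM in FIH-KO hypoxia. The genotypes were apart by an order of magnitude at both oxygen levels. Flt1 was 14.5-fold lower in FIH-KO cells in normoxia (log2 -3.86, SE 0.26, adjusted p = 2.00e-06) and 13.6-fold lower in hypoxia (log2 -3.77, SE 0.25, adjusted p = 1.95e-06). Hypoxia did not pass the threshold for Flt1 in WT or FIH-KO cells (log2 0.39 and 0.48, adjusted p = 0.166 and 0.320).

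The coreceptors Nrp1 and Nrp2 were higher in FIH-KO cells. Nrp1 had 29.5 and 24.3 CPM in WT normoxia, 20.7 and 15.8 CPM in WT hypoxia, 61.8 and 51.7 CPM in FIH-KO normoxia and 74.1 and 57.1 CPM in FIH-KO hypoxia. Its FIH-KO libraries were all above its WT libraries, by 2.11-fold in normoxia and 3.58-fold in hypoxia (adjusted p = 0.000961 and 3.42e-05), and hypoxia lowered it in WT cells (log2 -0.55, adjusted p = 0.0367). Nrp2 went from 308 to 699 CPM in normoxia and from 251 to 535 CPM in hypoxia as group means (2.27-fold and 2.14-fold, adjusted p = 0.000192 and 0.000342). Kdr and Flt4, the main signaling receptors for Vegfa and for Vegfc and Vegfd, had 0 to 3 counts in every library.

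Receptors and activators of the other factors were measured in part, with 6 of 11 tested. Calcrl, the adrenomedullin receptor, rose in hypoxia in WT (log2 0.87, adjusted p = 0.00171) and FIH-KO cells (log2 0.68, adjusted p = 0.0140), as did the decoy receptor Ackr3 (log2 1.14 and 1.75). Ramp2, a partner of Calcrl, had 29 and 37 counts in WT normoxia and 3 to 14 counts in the other 6 libraries (log2 -1.81 for FIH-KO against WT in normoxia and -2.56 for hypoxia in WT, adjusted p = 0.0139 and 0.00327). Ece1, which activates endothelin, was 3.10-fold higher in FIH-KO in normoxia and 3.26-fold higher in hypoxia (adjusted p = 0.000705 and 0.00135), and the endothelin receptor Ednra was 3.27-fold and 3.16-fold higher (adjusted p = 0.00453 and 0.0151). Hypoxia lowered Ece1 in WT and FIH-KO cells (log2 -1.77 and -1.70, adjusted p = 0.000865 and 0.00104) and Ednra in FIH-KO cells (log2 -1.22, adjusted p = 0.0333). Tek and Tie1, the receptors of the angiopoietin system, and Ednrb had at most 1 count in any library.

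**Figure D5:**
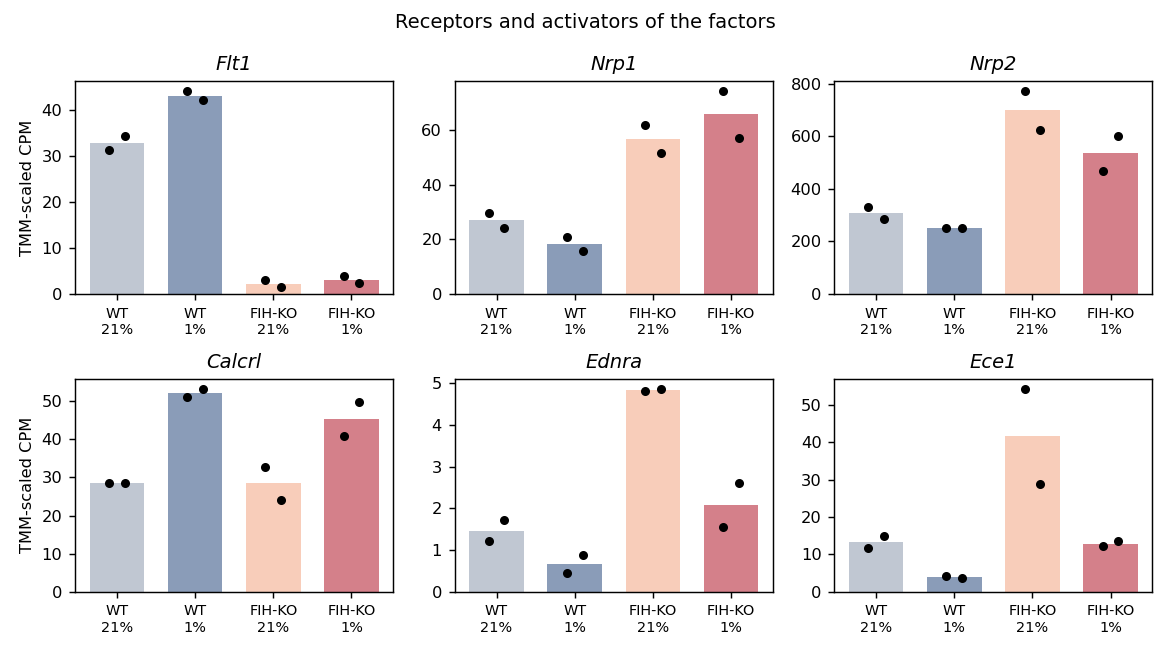
TMM-scaled CPM (vertical axes, each from 0 and on its own scale) of 6 receptors and activators in the 4 groups. Points are single libraries and bars are means of 2 libraries. Flt1 is under 4 CPM in all FIH-KO libraries and over 31 CPM in all WT libraries, while Nrp1, Nrp2, Ednra and Ece1 are higher in FIH-KO at each oxygen level and Calcrl is higher in hypoxia.

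Of 20 other angiogenic ligands, 14 were tested. Hypoxia raised 7 and lowered 4 in WT cells, and raised 5 and lowered 2 in FIH-KO cells, against 32.4% and 16.8% of all genes called in either direction. Angptl6, a relative of Angptl4, rose by log2 4.63 in WT and by 3.58 in FIH-KO cells, as did Hbegf, an EGF receptor ligand, by 1.93 and 1.51. Between genotypes 2 were higher and 1 was lower in normoxia, and 3 were higher and 1 was lower in hypoxia, near the 28.2% and 28.0% of all genes called in either direction. Pdgfa, a platelet-derived growth factor chain, was higher in FIH-KO cells by log2 2.19 in normoxia and 0.81 in hypoxia (adjusted p = 6.11e-06 and 0.00279), and Hdgf was lower by -0.49 and -0.53.

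Of 13 angiogenesis inhibitors, 12 were tested, and 6 were higher and 2 lower in FIH-KO cells in normoxia, with 3 higher and none lower in hypoxia. Over all genes 15.2% were higher and 13.0% lower in normoxia, and 14.1% and 13.9% in hypoxia. Thbs1, thrombospondin-1, had 158 and 180 counts in WT normoxia and 1483 and 2566 counts in FIH-KO normoxia (log2 3.48, SE 0.28, adjusted p = 8.67e-06), and it was higher by log2 3.15 in hypoxia. Thbs2 was higher by 1.64 and 1.89, and Sema3f, a semaphorin that binds Nrp2, by 1.79 and 2.72. Timp3, an inhibitor of metalloproteinases, was lower in normoxia, with 18 and 11 counts in WT and 5 and 2 in FIH-KO libraries (log2 -2.11, adjusted p = 0.0273). Hypoxia raised 3 and lowered 3 of the 12 in WT cells, where 16.9% of all genes were higher and 15.5% lower. In FIH-KO cells it raised 1 and lowered 3, where 8.84% of all genes were higher and 8.0% lower. Sema3f was lower (log2 -2.22 and -1.28) and the protease Adamts1 higher (log2 2.37 and 1.05) in both. Of 14 genes for VEGF processing and mRNA regulation, 11 were tested, and 5 were higher and 1 lower in FIH-KO in normoxia, 3 higher in hypoxia. Ccbe1, which assists the cleavage of Vegfc, was higher by log2 0.69 and 0.60, the membrane protease Mmp14 by 0.89 and 1.03, and Furin by 0.40 in hypoxia. With hypoxia, 4 of the 11 rose in WT (16.9% of all genes), and 2 rose and 1 fell in FIH-KO cells (8.84% and 8.0%). The splicing kinase Clk1 rose most (log2 1.00 and 0.99).

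The HIF pathway itself was set beside the members. Of 44 HIF target genes outside angiogenesis, 43 were tested, and hypoxia raised 39 in WT and 37 in FIH-KO cells, with median log2 differences of 1.74 and 1.86, against 16.9% and 8.84% of all genes called higher. Between genotypes in normoxia 5 were higher and 14 lower in FIH-KO cells (median -0.22), against 15.2% and 13.0% of all genes. Vegfa was thus higher while more of these targets were lower than higher. In hypoxia 10 were higher and 8 lower (median 0.12), against 14.1% and 13.9% of all genes. Egln3 was among the targets higher in hypoxia (log2 0.85). Slc16a3, a lactate exporter, was lower in FIH-KO normoxia (log2 -2.44), and the lipoprotein receptor Vldlr was lower at both oxygen levels, with 38 to 1222 counts in WT and 0 to 23 counts in FIH-KO libraries.

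Of 13 HIF subunits and regulators, 11 were tested. Hif1a, the oxygen-regulated subunit, gave log2 differences between genotypes of -0.21 at both oxygen levels (adjusted p = 0.258 and 0.250). Epas1, which encodes HIF-2α, and Hif3a had at most 3 counts in any library. Arnt2, a partner of the α subunits, was higher in FIH-KO cells, with 94 to 101 counts in normoxia and 30 to 34 in hypoxia against 1 to 9 in WT. Egln3, a prolyl hydroxylase and HIF target, was higher in FIH-KO cells in hypoxia (log2 0.85, adjusted p = 0.00393). In all, 3 of the 11 were higher and 2 lower in normoxia, 2 higher and 2 lower in hypoxia, and hypoxia raised 5 in WT and raised 4 and lowered 2 in FIH-KO cells. The shares of all genes called in either direction were 28.2% and 28.0% between genotypes and 32.4% and 16.8% for hypoxia.

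The genes whose log2 CPM followed each member most closely over the 8 libraries are given as a description, since all share the same 4 groups. For Vegfa they included Zfp408 (Pearson r = 0.995), Slc23a2 (0.993), Slc41a2 and Eea1 (each 0.991), all with positive log2 differences for hypoxia in both genotypes. For Adm they were Hilpda (0.999), a lipid droplet protein, Gm49890 (0.996) and Alg11 (0.995). Vegfd was followed by Car5b (0.998), Mmp14 (0.994) and Amot (0.993), and Angpt2 by Abca16 (0.989), Sdc4 (0.982) and Cpq (0.978). For Pgf they were Pdik1l and Ube2w (each 0.994) and Slfn10-ps (0.990), and for Vegfc Zhx2 (0.991), Setd7 (0.989) and Raet1e (0.986). Angptl4 (Ptprb 0.965, Smad7 0.953, Tex261 0.945) and Vegfb (2810025M15Rik 0.966, Poll 0.963, Ahcy 0.962) had no gene as close.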

How the data were processed

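RNA-Seq counts per gene from 8 LLC libraries were analysed. The authors demultiplexed reads with bcl2fastq, aligned them to GRCm39 with STAR and counted them with HTSeq, and the deposited values are raw counts without normalization. The submitters' processing notes also list GRCm38. The annotation release, the strand setting and the treatment of multimapping reads were not given in the sources used here. The libraries were made with a stranded mRNA kit. Groups came from the sample labels, and the hours of culture from the study's text.

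Counts were fitted in edgeR 4.0.16 (R 4.3.3): filterByExpr by group (13933 of 53700 genes kept), TMM scaling, a quasi-likelihood model with 4 group means over all 8 libraries, and Benjamini-Hochberg adjustment over all tested genes in each comparison. SE is the log2 difference divided by the square root of F. The common biological coefficient of variation was 11.7%. Log2 CPM used a prior count of 2. The fit was tested on simulated data. Replicates of a group differed by more than sampling noise, so all were kept as separate samples. This spread was unequal. As chi-square per degree of freedom of the counts it was 24.5 in FIH-KO hypoxia, 15.7 in FIH-KO normoxia, 11.2 in WT hypoxia and 5.92 in WT normoxia. The fit took 1 dispersion per gene for all groups, so SE and calls do not follow these differences between groups. Alternatives were DESeq2 1.42.0 (the authors' tool), RLE and upper-quartile scaling, keeping genes with 1 read or more anywhere, keeping genes with a minimum of 10 counts in each library, a fit on a comparison's own 4 libraries, the replicate number as a block, and each library left out.

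Positions, exon lengths and start sites came from GENCODE vM39 (GRCm39), in which 52610 identifiers (97.97%) were found, and sequences were read with pysam 0.24.0 in Python 3.11.15. RefSeq promoters (GRCm38.p6) were matched for 7 of 9 members and are not printed. Figures used matplotlib 3.10.9. The members and all gene lists were chosen with earlier results of these data known. All members are named, and from each other list up to 4 called genes with the largest log2 difference per comparison, the VEGF receptors, Hif1an, and the 5 genes most like Vegfa (1 of which is not reported here) and 3 most like each other member. Other genes named from the lists (Hif1a, Epas1, Hif3a, Vegfd's neighbors, genes that overlap members) were chosen for their role or position.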

Additional observations from a re-analysis of the deposited data

Results flagged for a closer look

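The difference between the genotypes in the log2 response of Vegfa to hypoxia was -1.11 (SE 0.22). The tests of this difference disagreed. DESeq2 called it, as 1 of 40 genes (adjusted p = 0.00449). The edgeR quasi-likelihood test, which called no gene, did not (adjusted p = 0.188). The levels behind the difference are the 2.30-fold higher normoxic Vegfa of FIH-KO cells and hypoxic levels that overlapped between genotypes.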

How the results depend on the processing

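With no single library left out, 257 values of single members under other tools, scalings and filters, the replicate block and fits on a comparison's own 4 libraries kept their direction and their side of the threshold, 2 lost their call, 6 gained one and 1 turned. The count of members called for a difference between responses was 0 and became 1 (Vegfa) in DESeq2 and with at least 1 read in any library, and ran from 0 to 1 with libraries left out. Over all genes that comparison had 0 calls, 40 in DESeq2, 143 with at least 1 read and 5 with the replicate block. For hypoxia in WT the count of 5 members ran from 3 to 4 with libraries left out, the 3 being without replicate 1 of WT hypoxia or replicate 2 of WT normoxia. For hypoxia in FIH-KO, 2345 genes were called over all libraries and 1289 with only the 4 FIH-KO libraries. Of these, calls were gained by Pgf in hypoxia (log2 -0.83, at least 1 read) and Vegfc in normoxia (-0.76, at least 10 counts), both FIH-KO against WT. Vegfd for hypoxia in WT was called with at least 1 read (-0.50) and with only the 4 WT libraries (-0.48). The cause of these changes was not tested.

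Directions that turned with 1 library left out belonged to differences near 0 that were not called. For FIH-KO against WT in hypoxia they ran from -0.15 to 0.33 for Vegfa, -0.26 to 0.42 for Adm and -0.66 to 0.38 for Angptl4, and in normoxia from -0.79 to 1.02 for Pgf and -0.30 to 0.49 for Adm. For hypoxia they ran from -0.24 to 0.032 for Angpt2 in WT, and in FIH-KO from -0.13 to 0.035 for Vegfb, -0.35 to 0.14 for Vegfc and -0.26 to 0.13 for Vegfd. The difference between responses of Adm ran from -0.35 to 0.44. With libraries left out, a group of 1 library is assumed to vary like the others.

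Deviations of same-numbered libraries had r from -0.010 to 0.193 over the pairs of groups, highest between FIH-KO hypoxia and WT hypoxia. Whether same-numbered libraries were handled together was not given, and these values do not settle it. With the replicate block the Adm difference between responses turned from 0.030 to -0.042, and no member's call changed. Pgf had no value with at least 10 counts in every library, nor in normoxia with only the 4 libraries in the fit. Depth limited what could be shown for Edn1, with 0 counts, and for Pgf in normoxia, with 10 counts or fewer.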
